A study of Mus musculus with 4 samples.

Results

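ER chaperones and the genes of the unfolded protein response (UPR) were examined in macrophages with and without a working Pparg gene, which encodes the nuclear receptor PPARγ. The set held 10 genes, and every probe set with values that the platform annotation assigned to 1 of them was taken, which gave 15 of 10649 probe sets. Labels name the genotypes as PPARg WT and PPARg KO and give both a mixture of 129/SV and C57BL/6 as their strain background. The labels give neither the allele, nor any Cre driver, nor the age or number of mice. Peritoneal macrophages were drawn out with 2.5 ml of 3% thioglycollate, an irritant, and collected 3 days after the injection. All cells of both genotypes were plated in 10% serum, washed after 5 h and cultured for 24 h in 0.5% serum with no added ligand or ER stressor. Each genotype was read on 2 one-colour Affymetrix arrays. The labels do not state whether the arrays within a genotype represent different mice or cultures. Any p-value here therefore refers to array-to-array spread, possibly technical.

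Secreted and membrane proteins fold in the endoplasmic reticulum (ER), where chaperones such as BiP and protein disulfide isomerases hold and oxidise new chains. When unfolded chains build up, the sensors IRE1, PERK and ATF6 start the UPR, in which spliced Xbp1 and cleaved ATF6 raise chaperone genes and PERK slows translation while favouring Atf4 and its target Ddit3. In macrophages the same branches also take part in the response to lipid load and to microbial signals. The arrays read transcript amounts. They do not separate spliced from unspliced Xbp1 and do not read PERK or ATF6 activity.

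Many genes of this set carry the ER stress response element (ERSE) near their start, so the element is shown as the sequence feature the members share. RefSeq promoters of the GRCm38.p6 build were available for all 10 genes, each running from 250 bases before to 50 after the gene's start. The ERSE, searched on both strands as CCAAT and CCACG with any 9 bases between them, occurred in 5 of these 10 promoters and in 0.119% of 32851 mouse promoters. The shorter ERSE-II, searched as ATTGG and CCACG with any 1 base between them, occurred in 1 further member and in 0.0365% of all promoters. Capitals below mark the element on the gene's strand, with 12 flanking bases on each side.
Hspa5, chr2:34772013-34772055, plus strand: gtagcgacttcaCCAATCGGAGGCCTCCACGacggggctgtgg
Hsp90b1, chr10:86705626-86705668, minus strand: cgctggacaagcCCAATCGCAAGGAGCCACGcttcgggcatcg
Calr, chr8:84847063-84847105, minus strand, element in the opposite orientation: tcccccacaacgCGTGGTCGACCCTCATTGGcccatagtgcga
Pdia6, chr12:17266479-17266521, plus strand: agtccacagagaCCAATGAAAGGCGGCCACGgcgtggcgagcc
Dnajc3, chr14:118937815-118937857, plus strand: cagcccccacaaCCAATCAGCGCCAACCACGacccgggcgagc
Herpud1, chr8:94386365-94386399, plus strand, ERSE-II: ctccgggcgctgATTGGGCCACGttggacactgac

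The elements lay upstream of the start, the nearest in Herpud1 (41 bases from its end to the gene's start) and Hspa5 (46 bases), and the farthest of those shown in Hsp90b1 (193 bases). Hsp90b1 held a second ERSE in the opposite orientation, 88 bases from the start. Herpud1 also held the letters TTGCATCA of an amino acid response element, which occurred in 0.895% of all promoters. The UPR element letters TGACGTGG occurred in 0 of the 10 promoters and in 0.676% of all. The windows of Pdia3, Pdia4, Xbp1 and Ddit3 held none of these 4 sets of letters. The search allowed no mismatch and did not reach beyond the windows, so it does not show that these genes lack such elements. A match is a description of the letters and was not tested as a binding site. The motifs were chosen with the promoter letters in view, as elements known from genes of this set. The counts in members are therefore not independent evidence beside the shares over all promoters.

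No transcript of the set passed the test between genotypes. Signals are the authors' deposited intensity units. Differences were taken as the KO mean less the WT mean of log2(signal + 16) and tested with limma across 6389 probe sets above the 40th percentile of mean signal, with Benjamini-Hochberg adjustment. The filter kept 13 of the 15 probe sets, covering 9 of the 10 genes. Of these 13, 0 passed an adjusted p of 0.05, where 3.55% of all tested probe sets did (227, of which 65 were higher and 162 lower in KO, or 170 higher and 249 lower after quantile normalization). At an unadjusted p of 0.05, 3 of the 13 passed (Pdia4, Ddit3 and 1 probe set of Dnajc3), beside 9.47% of all tested probe sets. All 3 were lower in KO, and 6.62% of all tested probe sets were lower at that p. This count rested on single arrays: leaving out WT replicate 1 gave 1, WT replicate 2 gave 0, KO replicate 1 gave 0 and KO replicate 2 gave 8. After median centring it was 0. With values as deposited, 12 of the 13 had a lower and 1 a higher KO mean, while 57.9% of all tested probe sets were lower. The median difference of the 13 was -0.15, beside -0.02 for all tested probe sets. After quantile normalization, median centring or cyclic loess, 10 were lower and 3 higher. The median of all tested probe sets was then 0.012, 0.005 and 0.005, so the 57.9% is no reference for these counts. These 13 probe sets read the same 4 arrays and several share a gene, so they are not independent counts.

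**Figure D1:**
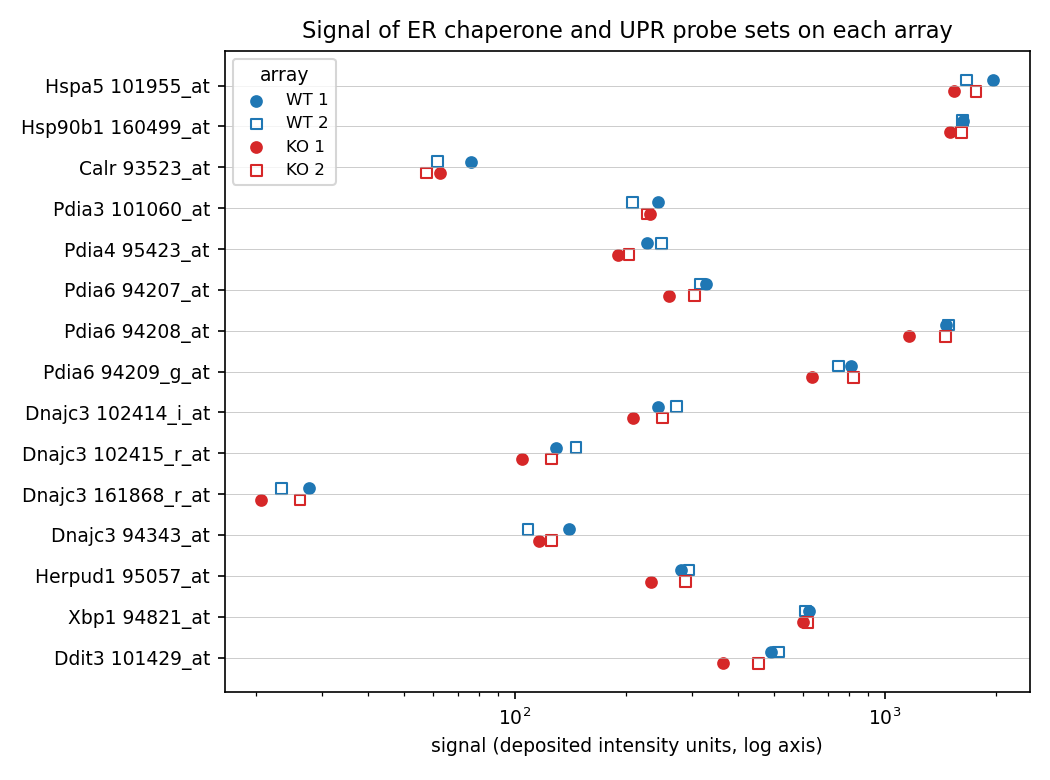
Deposited signal of each of the 15 probe sets (log axis, intensity units) on the 2 WT arrays (blue) and the 2 KO arrays (red), circles for replicate 1 and squares for replicate 2. Both KO arrays lie below both WT arrays for 6 of the 13 tested probe sets, among them Pdia4 and Ddit3, and signals of different probe sets are not comparable as levels.

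The chaperones of the ER lumen came first. Hspa5 encodes BiP, the Hsp70 of the ER, which binds unfolded chains and holds the UPR sensors inactive. Its probe set 101955_at read 1961 and 1663 in WT and 1538 and 1763 in KO. The groups overlapped, since KO replicate 2 lay above WT replicate 2. Means were 1812 ± 210.4 in WT and 1650.5 ± 159 in KO (SD, n = 2), a log2 difference of -0.13 (95% interval -0.44 to 0.18, adjusted p = 0.9997).

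Hsp90b1 encodes GRP94, the Hsp90 of the ER, which folds Toll-like receptors and integrins. Its probe set 160499_at read 1629 and 1623 in WT and 1497 and 1609 in KO. The KO arrays lay just below the WT pair, with a log2 difference of -0.07 (95% interval -0.38 to 0.24, adjusted p = 0.9997). Calr encodes calreticulin, the lectin chaperone that binds glycoproteins and calcium. Its only probe set with values, 93523_at, read 76.1, 61.7, 62.6 and 57.7 on WT replicates 1 and 2 and KO replicates 1 and 2. All 4 readings lay below the median antisense control of their array (103.8 to 116), so the probe set was not above this background and its difference is not interpreted. It fell below the signal filter, and in the fit without a filter the log2 difference was -0.15 (adjusted p = 0.78).

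No disulfide isomerase passed the adjusted p, and differences between them were not tested. Pdia3 encodes ERp57, which works with calreticulin and calnexin on glycoproteins and sits in the MHC class I peptide-loading complex. Its probe set 101060_at was the 1 with a higher KO mean, at 243 and 208 in WT against 232 and 228 in KO, with the KO pair inside the WT range (log2 difference 0.03, 95% interval -0.20 to 0.26, adjusted p = 0.9997). Pdia4 encodes ERp72, an isomerase with several thioredoxin-like domains. Its probe set 95423_at read 227 and 249 in WT and 190 and 203.5 in KO. The groups did not overlap. The means of 238 ± 15.3 and 197 ± 9.69 (SD, n = 2) gave a log2 difference of -0.26 (SE 0.11, 95% interval -0.48 to -0.03, unadjusted p = 0.025, adjusted p = 0.35 by limma). Both KO arrays lay wholly below both WT arrays in 6 of the 13 member probe sets, beside 21.1% of all tested probe sets.

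Pdia6, which encodes the isomerase P5, had 3 probe sets, of which 94208_at and 94209_g_at derive from the same accession. Probe set 94208_at read 1462 and 1487 in WT and 1160 and 1456 in KO. Probe set 94209_g_at read 810 and 749 in WT and 635 and 821 in KO, and 94207_at read 328 and 317 against 261 and 306. KO replicate 1 was the lowest array in each, and KO replicate 2 lay near the WT arrays or, for 94209_g_at, above them. Their log2 differences were -0.18, -0.11 and -0.18, with adjusted p from 0.88 to 0.9997.

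Cochaperone and degradation genes followed. Dnajc3 encodes p58IPK, an ER DnaJ protein that assists BiP and is also described as an inhibitor of the kinases PKR and PERK. It had 4 probe sets. Probe set 102414_i_at read 243 and 273 in WT and 209 and 250 in KO, with overlap. Probe set 102415_r_at, from the same accession, read 129 and 146 against 104.5 and 126 without overlap, and KO replicate 1 lay below its array's antisense control median of 111. Its log2 difference of -0.23 had an unadjusted p of 0.035 and an adjusted p of 0.43 by limma. Probe set 94343_at read 140 and 108.5 in WT and 116 and 126 in KO, a difference of -0.02 on the log2 scale. Probe set 161868_r_at read at most 27.8 and was below the filter. The Dnajc3 probe sets thus ranged from -0.23 to -0.02 among those tested, the 2 from 1 accession being the lower ones.

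Herpud1 encodes a membrane protein of ER-associated degradation, the disposal route for misfolded chains. Its probe set 95057_at read 282 and 295 in WT and 233 and 288.5 in KO. KO replicate 2 lay inside the WT range and KO replicate 1 below it, and the log2 difference was -0.15 (95% interval -0.38 to 0.09, adjusted p = 0.98).

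Of the transcription factors, Xbp1 differed little and Ddit3 had the largest difference of the 13 probe sets. Xbp1, the substrate of the IRE1 splicing reaction, was read by 94821_at at 624 and 611 in WT and 601 and 620 in KO. The arrays of the genotypes overlapped, and the log2 difference was -0.02 (95% interval -0.30 to 0.27, adjusted p = 0.9997). Ddit3 encodes CHOP, a factor induced by PERK and ATF4 signalling and linked to stress-induced cell death. Its probe set 101429_at read 490.5 and 516 in WT and 364.5 and 456 in KO. Both KO arrays lay below both WT arrays, KO replicate 2 being the nearer to them. The means of 503 ± 18.0 and 410 ± 64.6 (SD, n = 2) gave a log2 difference of -0.29 (SE 0.14, 95% interval -0.57 to -0.02, unadjusted p = 0.035, adjusted p = 0.43 by limma). Without KO replicate 2 it was -0.45 and passed (adjusted p = 0.023), and without KO replicate 1 it was -0.14 (adjusted p = 0.77). Over all alternatives its adjusted p ran from 0.023 to 0.9999.

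**Figure D2:**
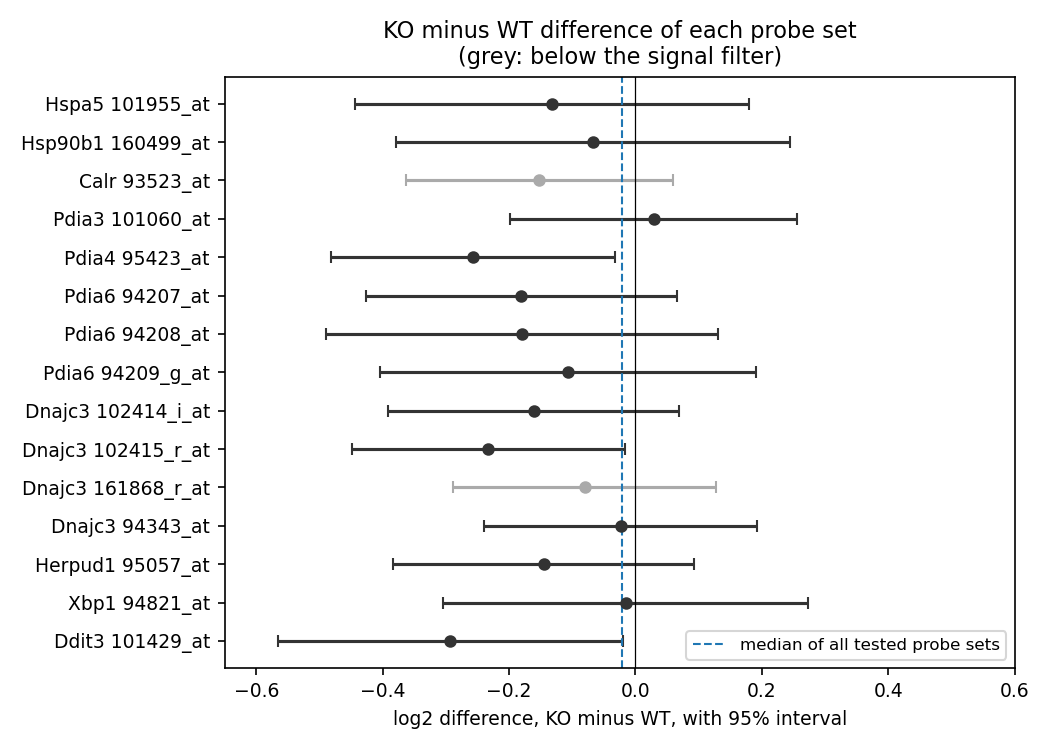
Log2 difference of KO minus WT for each of the 15 probe sets with its 95% interval from the limma fit, in black for the 13 tested and in grey for the 2 below the filter. The intervals of 10 of the 13 span 0, those of Pdia4, Ddit3 and Dnajc3 102415_r_at do not, and the dashed line marks the median of all tested probe sets at -0.02.

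The intervals bound how large a difference these arrays leave room for. Across the 13 probe sets the lowest lower bound corresponded to 0.676 times the WT level (Ddit3) and the highest upper bound to 1.21 times (Xbp1). These intervals use a spread shared over all probe sets of similar signal. With each probe set's own spread on 2 residual degrees of freedom, the bounds reached from -0.98 to 0.71 on the log2 scale, and 0 of the 13 passed an unadjusted p of 0.05. A p above the threshold does not show that a transcript was equal in the genotypes.

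The spread between the KO arrays was as large as most of the differences between genotypes. KO replicate 2 exceeded KO replicate 1 in 12 of the 13 probe sets, Pdia3 being the exception, and the median of this difference was 0.22 (log2). The same difference between the WT arrays had a median of -0.01, with 6 of 13 higher on replicate 2. In 11 of the 13 the KO replicates differed from each other by more than the genotypes did. This sets single arrays against group means, which vary less, and the share over all tested probe sets was not counted. Over all tested probe sets the KO replicates differed by a median of 0.11, and this shift grew with signal, from -0.01 in the dimmest to 0.21 in the brightest decile. Hspa5, Hsp90b1 and Pdia6 94208_at lay in the brightest decile. Without KO replicate 1 the median difference of the 13 was -0.02 (8 lower, 5 higher), beside 0.009 for all tested probe sets. Without KO replicate 2 it was -0.29 (12 lower, 1 higher), beside -0.062 for all. With all arrays these medians were -0.15 and -0.022. With all arrays, the members' median was -0.11 after quantile normalization, -0.12 after median centring and -0.13 after cyclic loess. The median of all tested probe sets was then 0.012, 0.005 and 0.005, so the reference moved as well. The part of the difference between the KO arrays in the members' values was not tested beyond these figures.

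**Figure D3:**
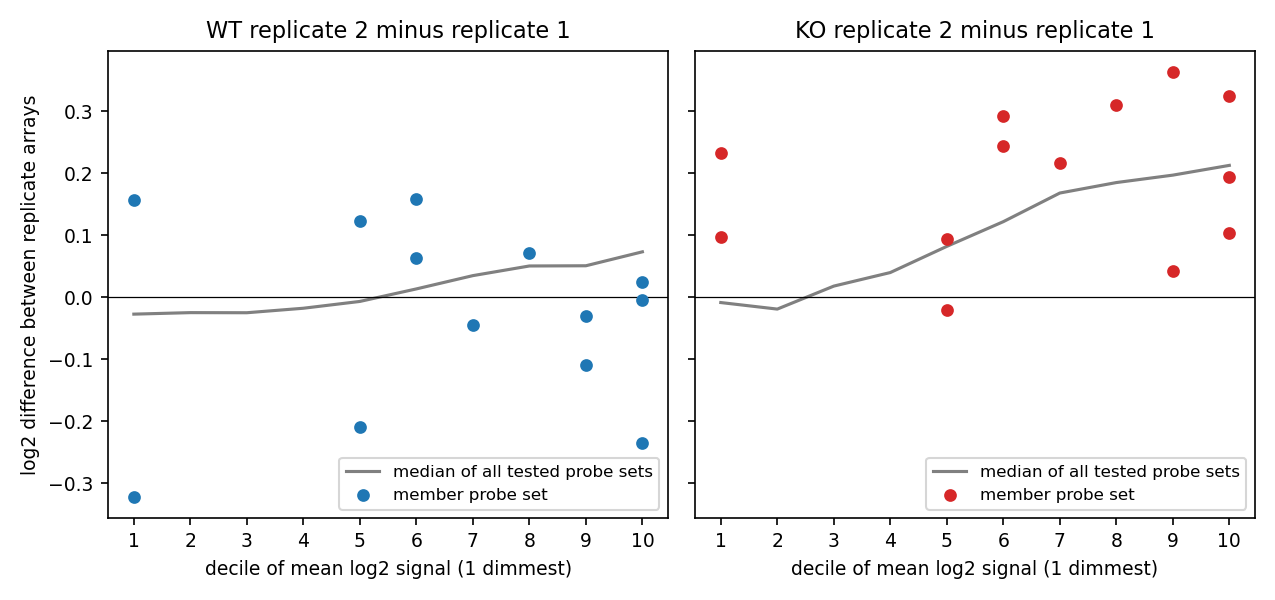
Difference between replicate 2 and replicate 1 (log2 scale) of the WT arrays (left) and the KO arrays (right) against the decile of mean log2 signal, with dots for the 13 tested member probe sets and a grey line for the median of all tested probe sets in each decile. The KO line climbs from -0.01 to 0.21 and 12 of 13 KO dots lie above 0, while the WT dots lie on both sides.

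The other genes of the ER and stress pathways were described from 8 lists with 121 tested genes. Of these, 1 was higher and 3 were lower in KO past the adjusted p, which is 3.31%, beside 3.72% of all 5002 genes tested (1.06% higher and 2.66% lower). Their median log2 difference was -0.05, against -0.02 for all genes. Genes are represented by their brightest tested probe set.

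In the list of UPR sensors, proteases and transcription factors, 0 of 6 tested genes passed, but IRE1, PERK and ATF6 were not among the 6. Ern1 (IRE1) and Eif2ak3 (PERK) had no probe set with values assigned to them alone. Atf6 read 88.3 and 86.2 in WT and 69.7 and 86 in KO. It lay below the filter and below the antisense control median on every array. Atf4, the factor translated when PERK is active, read 1891 and 2189 in WT and 1654 and 2031 in KO, with overlapping groups (log2 difference -0.15, adjusted p = 0.9997). Nfe2l1, which drives proteasome genes, read 814.5 and 891 against 683 and 739 without overlap (log2 difference -0.26, adjusted p = 0.73). The list's median was -0.07. Among 11 tested genes of ER-associated degradation, 0 passed, with a median of -0.06 and a range from -0.15 to 0.08. Vcp, the ATPase that pulls chains out of the membrane, read 991 and 949.5 in WT and 867 and 962 in KO. Edem2, which trims mannose from glycoproteins bound for degradation, read 576 and 540 against 548 and 635.

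Of 26 other ER chaperones and folding enzymes tested, 1 rose and 25 did not pass, with a median of -0.04. The riser was Serpinh1, which encodes HSP47, the chaperone of collagen. It read 182 and 169 in WT and 246 and 280 in KO, so both KO arrays lay above both WT arrays. The log2 difference was 0.54 (SE 0.11, adjusted p = 0.00015), and the call was lost without WT replicate 1 (adjusted p = 0.063) and without WT replicate 2 (adjusted p = 0.34). Ppic, a cyclophilin, read 43.5 and 39.3 in WT and 66.3 and 65.8 in KO, all below the antisense control median, and was below the filter. Of 5 tested markers of fibroblasts and mesothelial cells, 1 rose. The summed signal of the 10 measured markers was 2069 and 2090 in WT and 2557 and 2889 in KO. Dcn, the fibroblast proteoglycan decorin, rose from 616 and 561 to 945 and 1060 (adjusted p = 6.3e-05) and made up most of the difference in the sum. Col1a2 (log2 difference 0.37, adjusted p = 0.12), Col3a1 (0.27, adjusted p = 0.30), Col1a1 (0.21, adjusted p = 0.78) and Krt8 (0.07, adjusted p = 0.9997) did not pass, and Msln, Krt19, Krt18 and Wt1 lay below the antisense control median on all 4 arrays. The part of such cells in the Serpinh1 result was not tested, and in bulk RNA more cells of a type cannot be told apart from more RNA per cell.

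Targets of the integrated stress response, the branch in which Ddit3 lies, had 1 of 15 tested genes past the threshold. Nupr1, a small stress-induced chromatin protein, fell. It read 384.5 and 416 in WT and 269 and 309 in KO, without overlap (log2 difference -0.45, SE 0.13, adjusted p = 0.017). The call was lost without any 1 of WT replicate 1 (adjusted p = 0.59), WT replicate 2 (0.9999) or KO replicate 1 (0.12), and after median centring (0.059). The list's median was -0.13, with 11 lower and 4 higher means. Both KO arrays lay below both WT arrays in 7 of the 15, beside 20.9% of all genes. Trib3, a pseudokinase induced by CHOP, read 278 and 257 in WT and 199 and 214 in KO (log2 difference -0.35, adjusted p = 0.067). Psat1, an enzyme of serine synthesis, read 647 and 660 against 460 and 554 (adjusted p = 0.23). Cebpb, a partner of CHOP, read 1695 and 1816 against 1235 and 1594.5 (adjusted p = 0.497). Gadd45a, a growth arrest gene, went the other way, at 211 and 244 in WT and 247 and 296 in KO (log2 difference 0.24, adjusted p = 0.50). These 4 genes and Nupr1 were the 5 of the 15 with an unadjusted p under 0.05 by limma, and the 4 were named after their values were seen. At that p 9.47% of all tested probe sets passed, a share counted by probe set and not by gene. Cebpb, Psat1, Trib3 and Nupr1 were all called lower after quantile normalization, after cyclic loess and without KO replicate 2, and Psat1 also without the trend in eBayes. Atf3, another target of ATF4, read 1745 and 1663.5 in WT and 1668 and 1803 in KO.

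No tested gene passed among those that feed and empty the ER. Of 22 tested genes of the translocon, signal peptidase and oligosaccharyltransferase, 0 passed (median 0.01, 10 lower and 12 higher). Dad1, a subunit of the oligosaccharyltransferase, read 2088 and 2509 in WT and 2091 and 2553 in KO. Ssr3, a translocon-associated protein gene, read 1805 and 1915 against 1637.5 and 1871. Of 20 tested genes of ER to Golgi transport and KDEL retrieval, 0 passed (median -0.06, 16 lower and 4 higher). Surf4, a cargo receptor, read 1937.5 and 2311 against 1899 and 2231, and Copb2, a coat protein subunit, 1154 and 1388 against 1056.5 and 1132. For comparison, 0 of 17 cytosolic and mitochondrial chaperones passed, with a median of 0.01. Hspa8, the constitutive Hsp70 of the cytosol, read 1472 and 1455 in WT and 1399 and 1554.5 in KO. Cct5, a subunit of the cytosolic chaperonin, read 782 and 736 against 779 and 847.5. At an unadjusted p of 0.05, limma passed 0 genes in each of these 3 lists, each gene being read by its brightest probe set. The same held for ER-associated degradation and for the UPR list, in which IRE1, PERK and ATF6 were not tested. Vcp 97666_r_at, below the filter and below the antisense control median on every array, had a log2 difference of -0.23. Its unadjusted p was 0.034 by limma in the fit without a filter. Above the filter, dimmer probe sets of named genes passed an unadjusted p of 0.05 in 2 cases. Nfe2l1 101757_at read 374.5 and 375 in WT and 281 and 325 in KO (log2 difference -0.30, unadjusted p = 0.021, adjusted p = 0.31 by limma). Ssr3 104249_g_at read 586 and 602 against 441 and 501 (log2 difference -0.33, unadjusted p = 0.023, adjusted p = 0.33 by limma), while the third Ssr3 probe set, 104248_at, was at -0.14 with overlapping groups.

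**Figure D4:**
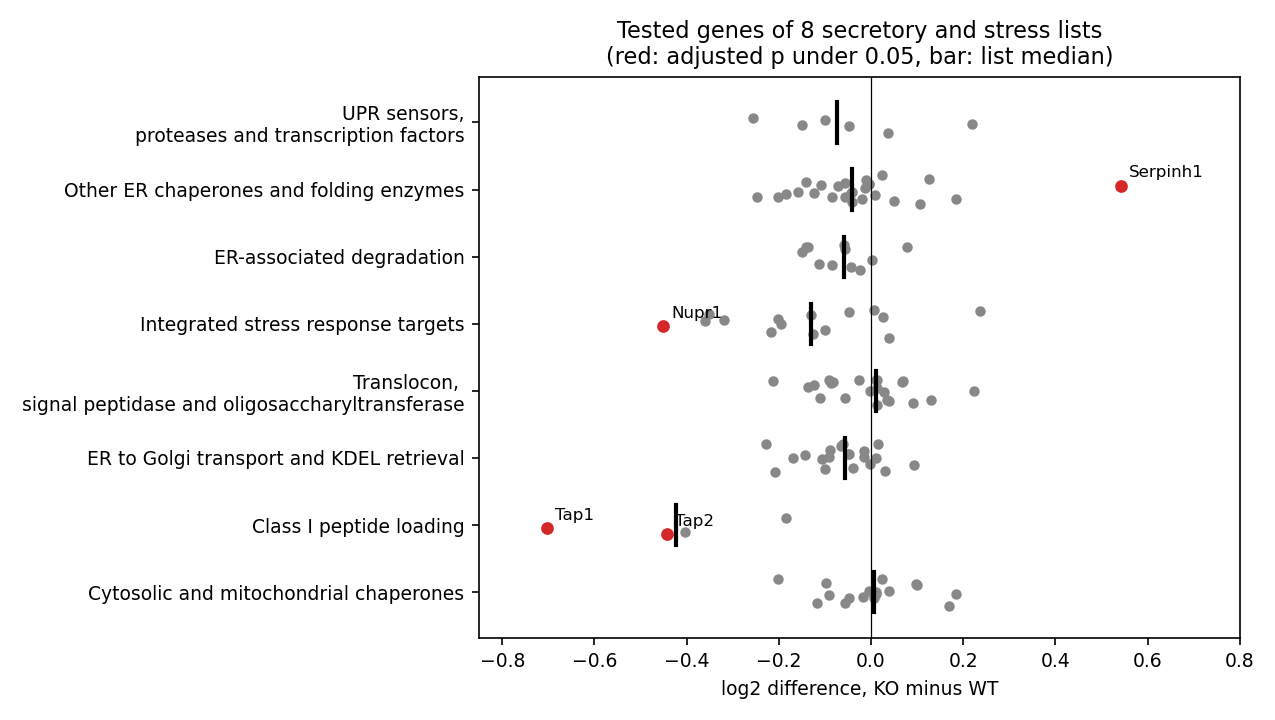
Log2 difference of KO minus WT for the 121 tested genes of the 8 lists, 1 dot per gene, with black bars at each list's median and red dots for the 4 genes past an adjusted p of 0.05. Serpinh1 is the red dot to the right, and Tap1, Tap2 and Nupr1 are those to the left.

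Calreticulin and ERp57 serve in the class I peptide-loading complex, whose other members were set beside them. Of 4 tested loading genes, 2 fell and 2 did not pass, and in all 4 both KO arrays lay below both WT arrays, beside 2.66% of all genes called lower and 20.9% with the KO arrays wholly below. Tap1, a subunit of the peptide transporter, read 1910.5 and 1952 in WT and 1050 and 1324 in KO (log2 difference -0.70, SE 0.16, adjusted p = 0.00056), and Tap2 351 and 410.5 against 252 and 301 (log2 difference -0.44, adjusted p = 0.018). Tapbp, which encodes tapasin, read 2948 and 2676 against 2027 and 2217 (log2 difference -0.40, adjusted p = 0.19), and B2m, the class I light chain, had a log2 difference of -0.19. Pdia3, at 0.03, did not share this difference in mean, and the difference between these genes was not tested. Without WT replicate 1 or WT replicate 2, neither Tap gene passed (adjusted p from 0.38 to 0.9999), with log2 differences of -0.72 and -0.69 for Tap1 and -0.55 and -0.33 for Tap2. Tapbp was called after quantile normalization, after cyclic loess, without the trend in eBayes and without KO replicate 2, and B2m after quantile normalization and cyclic loess. Tap2 was also lost without KO replicate 1 (adjusted p = 0.19) and after median centring (adjusted p = 0.060).

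Genes outside the set that also hold an ERSE or ERSE-II in their promoter were picked by sequence. There were 43 such genes, 7 of them on the pathway lists, and 9 were tested. Among the 9, Canx, Creld2, Dnajb11, Ero1b and Krtcap2 had already been counted in the lists above. Of the 9, 0 passed, also at an unadjusted p of 0.05 by limma, beside 3.72% of all genes past the adjusted p. Lower KO means were found in 7 of the 9, beside 57.9% of all tested probe sets. The median log2 difference of the 9 was -0.10, with a range from -0.16 to 0.05, beside -0.02 for all genes. Ero1b was the lowest, and Dnajb11 and Canx had the higher KO means. Creld2, a UPR-induced ER protein, read 233 and 254 in WT and 206 and 239 in KO. Dnajb11, an ER DnaJ partner of BiP, read 206 and 176 against 179 and 217, and Canx, the membrane-bound lectin chaperone calnexin, 316 and 296 against 348 and 273. In each of these 3 genes the arrays of the genotypes overlapped.

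By likeness to Hspa5, the nearest genes outside the lists were Casp8, Lims1 and Srsf6. Likeness was the Euclidean distance between log2 profiles centred on their means over the 4 arrays, and the 3 distances were 0.039, 0.040 and 0.042. Of 4843 genes compared, 82 lay within 0.1, so with 4 arrays a near profile is common. Casp8 read 201 and 172 in WT and 156 and 186 in KO, the same order of arrays as Hspa5.

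Arrays and cells were checked as follows. Median signals ran from 137 to 142. Pparg itself read 61.1 and 73.1 in WT and 43.0 and 40.6 in KO, below the antisense control medians on every array and below the filter, and the part of the gene that was deleted is not given, so this is a weak check of the genotype. Macrophage markers were present, with Cd68 between 6210 and 6955.5 and Lyz2 between 6872 and 7519. Of the 9 such markers, 1 passed: Mertk fell from 226 and 233 to 135 and 150.5. Markers of B cells and of plasma cells, which are rich in ER, summed to 1007 and 1054 in WT and 994 and 1092 in KO, with Pou2af1 below the antisense control median on all arrays. The summed neutrophil markers were 1314 and 1377 in WT and 1142.5 and 1144 in KO. Most of this difference was S100a8, which fell from 517 and 542 to 331 and 370 and was the 1 of 3 tested markers that passed. All 3 tested markers had lower KO means, with log2 differences from -0.58 to -0.06. In all 3 both KO arrays lay below both WT arrays, beside 20.9% of all genes. Of the 9 markers, 5 lay below the antisense control median on all arrays. The dim Ly6g (log2 difference 0.15), Ngp (0.10) and Cxcr2 (0.10), which were below the filter, had higher KO means. The lists of T and NK cell, mast cell, eosinophil and dendritic cell markers had 0 called genes of 8 tested.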

How the data were processed

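Per the labels, total RNA (10 µg per array) was labelled for 1-colour Affymetrix arrays. The authors deposited intensity values that, judged by their range, are linear, with 1 value for each probe set on each array; for their summary, background and scaling steps, tools and settings are not given in the sources used here. The table had 12488 rows: 1780 blank, 59 controls and the rest with values. Gene names came from the platform annotation, checked by gene identifier against RefSeq GRCm38.p6 (9377 of 9389 probe sets with 1 gene matched). Array medians differed by less than 0.1 on the log2 scale and values were used as deposited. The filter was the 40th percentile (a signal of 111) of mean log2(intensity + 16), and limma 3.58.1 (R 4.3.3, lmFit, eBayes with trend) tested KO against WT, two-sided. Since limma estimated an infinite prior, the spread of a probe set was that of the trend at its signal. The number of arrays limits the precision, and an exact permutation test of 2 arrays against 2 cannot go below p = 0.33.

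On data simulated for this comparison, with 200 of 6389 probe sets changed, the fit recovered 100% of changes of 1 and 73% of changes of 0.5 on the log2 scale, with 7 false calls. The simulated noise was independent between arrays and had the spread that the fit itself assumes. It held neither the shift between the KO arrays nor the shared deviations of same-numbered arrays. These rates therefore need not hold for the real arrays. Members and lists were chosen with earlier results of these data known. Named genes are all members, per list up to 4 called genes or else the 2 brightest, and the 3 profiles nearest to Hspa5; genes said to be exceptions were chosen after their values were seen, as were the markers named and the genes named among those with an ERSE. Same-numbered arrays deviated together (correlation 0.42 over probe sets), but with 2 pairs and no label tying them the numbers were not taken as pairs. Alternatives were other normalizations, filters, pseudocounts and moderations, a replicate block, leaving out arrays in turn, and averaging the probe sets of a gene. No alternative was added later. Figures were drawn with matplotlib 3.10.9.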

Additional observations from a re-analysis of the deposited data

How the results depend on the processing

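The number of called probe sets (227) was 419 after quantile normalization, 435 after cyclic loess, 480 with the replicate number as a block and 0 without moderation, where 388 had an unadjusted p under 0.05; with an array left out it ran from 54 to 327. Among the members tested (13, but 11 with the filter at the 60th percentile and 9 with a gene's probe sets averaged), 0 passed under every alternative except 2: with the replicate block 1 passed (Ddit3, adjusted p = 0.038), and with an array left out the count was 0 or 1, the 1 being Ddit3 without KO replicate 2. The block kept every list call and added Cebpb, Psat1, Trib3 and Tapbp. The called genes of the 8 lists (4) numbered 9 after quantile normalization, 9 after cyclic loess, 2 after median centring, 8 with the replicate block and 0 without moderation, and 0 to 8 with an array left out. The members' median log2 difference ran from -0.29 to -0.02 with an array left out, beside -0.062 to 0.009 for all tested probe sets. Small differences turned sign: Dnajc3 94343_at was 0.0043 after quantile normalization, 0.0028 after median centring and 0.0084 after cyclic loess, and Xbp1 was 0.016, 0.011 and 0.0098 under these. With an array left out, the lowest and highest log2 differences were -0.18 and 0.14 for Dnajc3 94343_at, -0.037 and 0.0058 for Xbp1, -0.076 and 0.13 for Pdia3, -0.29 and 0.075 for Pdia6 94209_g_at, -0.29 and 0.0011 for Herpud1, -0.13 and 0.16 for Dad1, -0.17 and 0.087 for Surf4, -0.18 and 0.0088 for Ssr3, -0.024 and 0.18 for Edem2 and -0.064 and 0.086 for Hspa8. The causes were not tested; without a WT array the spread comes from the KO pair alone. Dim probe sets (Calr, Dnajc3 161868_r_at) lay below the antisense control median on every array, and their differences are not interpreted.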
